A study of Mus musculus with 96 samples.

Results

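The genes described here are 4 tissue inhibitors of metalloproteinases (Timp1, Timp2, Timp3 and Timp4) and 6 extracellular proteases that they can meet in the tissue (Mmp2, Mmp3, Mmp12, Mmp14, Mmp19 and Adamts1). They were taken by symbol, after trimming of spaces, from both tables of gene counts, and all 10 were found among the 32594 genes listed. They were followed through 3 brain regions, 2 time points and 4 groups.

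The study asked how gene expression in the mouse brain changes after traumatic brain injury (TBI) and whether candesartan, a blocker of the angiotensin AT1 receptor, alters that response. Adult male C57BL/6 mice were given a controlled cortical impact, in which a piston strikes the cortex through an opening in the skull, or a sham operation of anesthesia and a skin incision without that opening. The ipsilateral hippocampus, thalamus and hypothalamus were collected after saline perfusion, 3 or 29 days after the injury (dpi, days post-injury). Each region and time point held 4 libraries of each of 4 groups: sham with vehicle (Sham + VH), injury with vehicle (TBI + VH), sham with candesartan (Sham + CD) and injury with candesartan (TBI + CD), which made 96 libraries. Every mouse received its first intraperitoneal dose of drug or vehicle 6 h after surgery. The 3 dpi mice were injected again at 24 and 48 h, whereas the 29 dpi mice carried an osmotic pump from 24 h on, so time and route of dosing cannot be told apart. Because the sham mice had no opening in the skull, the effects of the impact and of the opening cannot be told apart. The libraries were made from the best RNA samples of each group, and the labels do not say which libraries of different regions came from 1 mouse.

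Matrix metalloproteinases cut proteins of the extracellular matrix and of the cell surface, and most are made as inactive precursors. TIMPs are secreted proteins that bind the active site of these enzymes, and Timp3 is unusual in that it is held in the matrix and also blocks several ADAM and ADAMTS proteases. In the brain, proteases of this group act on the basement membrane of vessels and on the chondroitin sulfate proteoglycans around neurons, and they are best known for their part in opening of the blood-brain barrier and in later repair.

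The genes lie on 8 chromosomes, and several share ground with other genes (GENCODE vM21, GRCm38). Timp1 (chrX:20870166-20874735, plus strand) lies inside the synapsin gene Syn1 on the opposite strand, with 0 exonic bases shared. Timp4 (chr6:115241892-115252205, minus strand) lies inside Syn2 and shares 90 exonic bases with it, 1.53% of its own. Timp3 (chr10:86300372-86349506, plus strand) lies inside Syn3 and shares 1733 bases, 21.3% of its exons. Mmp19 (chr10:128790910-128800824, plus strand) shares 789 exonic bases, 22.3%, with Tmem198b on the opposite strand. Mmp3 (chr9:7445822-7455975) and Mmp12 (chr9:7344381-7369499) are neighbours on the plus strand. The strand setting used in counting is not given in the sources used here, so reads from the shared bases could have been given to either gene.

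The 250 bases before the start site are printed for the members that were called higher after injury in the hippocampus and are in the RefSeq promoter table (GRCm38.p6), and for Mmp3, which lies beside Mmp12 but stayed near 0 counts. Both strands were searched for AP-1 sites (TGANTCA), PEA3 sites (AGGAAG) and TATA boxes (TATAAA), which stand in capitals and do not overlap here. Timp1 holds 2 PEA3 matches, which end 170 and 94 bases before the start (chrX:20869916-20870165, plus strand). Timp4 holds 1 on the reverse strand, 106 bases before the start (chr6:115252206-115252455, minus strand). Mmp14 holds 1 PEA3 match 204 bases before the start (chr14:54431348-54431597, plus strand). Of the start sites of Mmp12, the window that overlaps no exon has 1 AP-1 match 38 bases before the start (chr9:7347124-7347373, plus strand). Mmp3 has an AP-1 match 40 bases before the start, a PEA3 match at 178 and a TATA match at 2 (chr9:7445572-7445821, plus strand). Of 32851 windows of this length, 6.75% hold the AP-1 letters, 29.5% the PEA3 letters and 12.4% the TATA letters. A match of letters is not evidence that a factor binds there. The table held 8 of the 10 members; Mmp2 and Mmp19 were not among them.
Timp1: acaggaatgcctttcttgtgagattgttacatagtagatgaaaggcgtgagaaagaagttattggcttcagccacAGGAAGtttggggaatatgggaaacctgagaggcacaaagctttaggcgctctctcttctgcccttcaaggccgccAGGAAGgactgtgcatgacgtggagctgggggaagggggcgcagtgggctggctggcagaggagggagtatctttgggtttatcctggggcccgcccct
Timp4: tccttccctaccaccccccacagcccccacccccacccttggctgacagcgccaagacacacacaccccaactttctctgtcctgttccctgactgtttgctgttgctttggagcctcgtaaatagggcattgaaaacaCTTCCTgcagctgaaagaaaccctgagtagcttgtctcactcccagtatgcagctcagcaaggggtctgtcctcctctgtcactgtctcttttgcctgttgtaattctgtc
Mmp14: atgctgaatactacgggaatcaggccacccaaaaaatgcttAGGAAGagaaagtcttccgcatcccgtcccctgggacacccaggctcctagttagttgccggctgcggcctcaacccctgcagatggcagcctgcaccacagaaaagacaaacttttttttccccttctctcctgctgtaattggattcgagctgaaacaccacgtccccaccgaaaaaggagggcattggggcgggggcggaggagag
Mmp12: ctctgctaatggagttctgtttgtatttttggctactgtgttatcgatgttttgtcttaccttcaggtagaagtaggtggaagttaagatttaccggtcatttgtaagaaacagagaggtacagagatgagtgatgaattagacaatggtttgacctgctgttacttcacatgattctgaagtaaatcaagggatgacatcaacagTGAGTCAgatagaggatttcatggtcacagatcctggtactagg
Mmp3: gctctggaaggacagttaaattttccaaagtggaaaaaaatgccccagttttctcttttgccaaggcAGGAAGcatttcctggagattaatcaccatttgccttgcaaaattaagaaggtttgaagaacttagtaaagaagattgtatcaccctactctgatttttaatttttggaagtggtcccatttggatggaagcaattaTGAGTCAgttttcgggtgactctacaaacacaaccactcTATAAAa

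Library size was 17150610 to 31253784 counts at 3 dpi and 6663629 to 38589791 at 29 dpi, where 4 hippocampal libraries held less than 12000000. Marker genes of the 3 regions matched the labels. In the hippocampus at 3 dpi, summed choroid plexus markers (Ttr and 9 others) differed between groups. They summed to 7029, 4570, 216 and 4847 CPM in the 4 Sham + VH libraries and to 24.4 to 176 in TBI + VH. In the Sham + CD libraries the sum was 65.2 to 125, and in TBI + CD it was 2771, 46.3, 22.9 and 171. Results for members that change when this score is a covariate are given with both values. CPM are counts scaled to library size, here with the trimmed mean of M-values (TMM) over all libraries. A gene was called when edgeR's quasi-likelihood test gave a false discovery rate (FDR) under 0.05 and the log2 fold change was past 0.32 in size, the thresholds of the study.

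Among the inhibitors, Timp2 was the most abundant at every site when levels were set per kilobase (kb) of exon. In Sham + VH mice at 3 dpi, Timp2 averaged 88.1 ± 11.7 CPM per kb (SD, n = 4) in the hippocampus, 176 ± 6.65 in thalamus and 181 ± 22.3 in hypothalamus. Timp3 followed with 14.5 ± 1.67, 40.3 ± 2.76 and 21.4 ± 1.28 CPM per kb. Timp4, the TIMP with the most restricted tissue range, stood at 5.41 ± 0.30, 6.26 ± 1.46 and 6.44 ± 0.96 CPM per kb. Timp1, an inducible member, was lowest with 0.23 ± 0.21, 0.20 ± 0.13 and 0.42 ± 0.14 CPM per kb. Timp2 made up 64.2% to 87.8% of the summed TIMP level per kb across all 96 libraries.

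Among the proteases of the same mice, Adamts1, which cuts proteoglycans such as versican and aggrecan, led in the hippocampus with 4.70 ± 0.87 CPM per kb. Mmp14, a membrane-bound protease that activates Mmp2, stood at 3.23 ± 0.19 CPM per kb there, and Mmp2, a gelatinase, at 1.23 ± 0.28. Mmp19 was at 0.30 ± 0.08 CPM per kb. Mmp12, the macrophage elastase, had 0 counts in all 4 of these hippocampal libraries, and Mmp3, stromelysin-1, had at most 1. In every library of the series Mmp3 had 5 counts or fewer and was not tested.

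**Figure D1:**
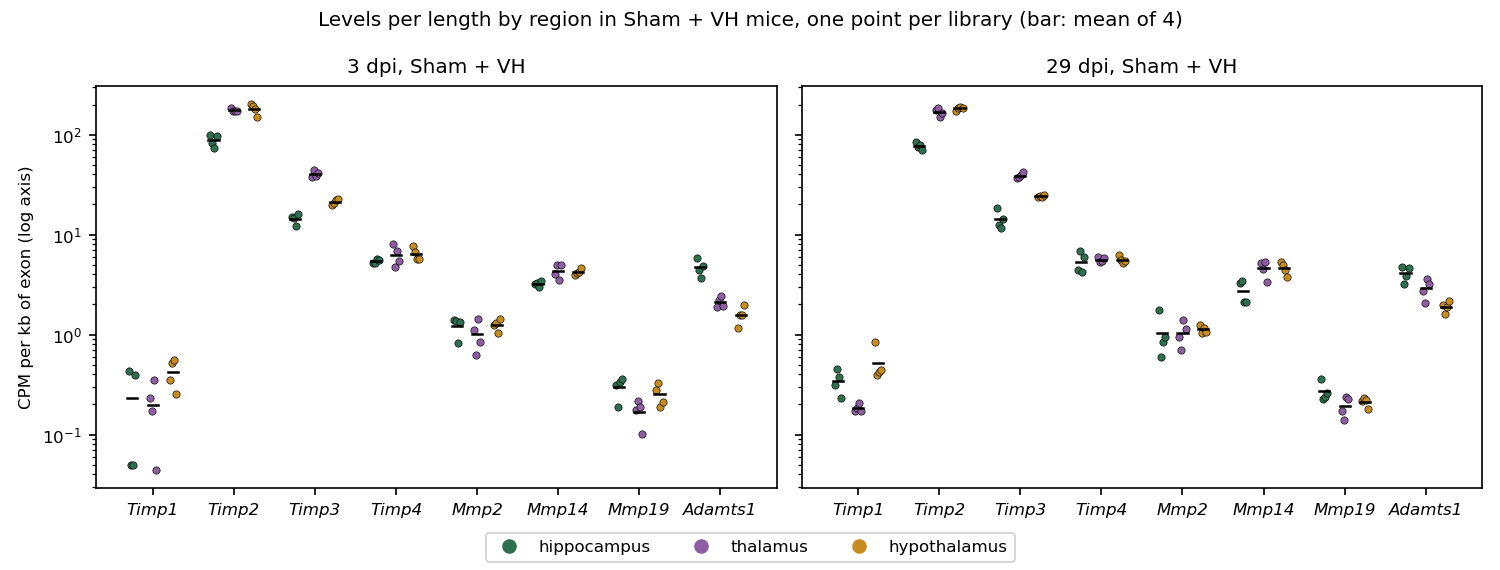
Level of 8 members in Sham + VH mice by region at 3 dpi (left) and 29 dpi (right), in CPM per kb of exon on a log axis; points are libraries and bars are means of 4. Timp2 and Timp3 sit lower in the hippocampus than in the thalamus and hypothalamus, and Adamts1 sits higher.

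The regions of Sham + VH mice differed in 4 members, the same ones against the thalamus and against the hypothalamus. At 3 dpi, 4 members were called between hippocampus and thalamus, where 40.8% of all genes tested were called. On the log2 scale Timp2 was lower in the hippocampus by -0.99 ± 0.09 (± SE; FDR = 1.71e-09). Its libraries there lay at 288 to 387 CPM against 669 to 724 in the thalamus. Timp3 was lower by -1.47 ± 0.09 (FDR = 5.31e-12), with 99.3 to 132 CPM against 308 to 358. Mmp14 was lower by -0.43 ± 0.11 (FDR = 0.00212), and Adamts1 was higher by 1.16 ± 0.17 (FDR = 3.77e-06).

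Against the hypothalamus, 4 members were called (46.4% of all genes): Timp2 by -1.04 ± 0.09, Timp3 by -0.57 ± 0.09, Mmp14 by -0.39 ± 0.11 and Adamts1 by 1.58 ± 0.17 (FDR = 5.52e-10, 1.4e-05, 0.00382 and 3.68e-08). Between thalamus and hypothalamus 1 member was called, with 28% of all genes: Timp3 was higher in the thalamus by 0.90 ± 0.09 (FDR = 7.51e-08). Adamts1 was higher there by 0.42 ± 0.17 (FDR = 0.0575), which became a call with DESeq2 and when any 1 of 5 libraries was left out (FDR = 0.0209 to 0.0495): hippocampus Sham + VH replicates 1 and 3, thalamus TBI + VH replicate 1, hypothalamus Sham + VH replicate 4 and hypothalamus TBI + VH replicate 2.
The order of the regions for Timp2 was thus hippocampus lowest, with thalamus and hypothalamus not separated by the test. For Timp3 all neighbours differed, from hippocampus through hypothalamus to thalamus. The test took libraries of different regions as independent.

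The difference in Mmp19 between hippocampus and thalamus lay beside the threshold and turned on single libraries. Mmp19 was 0.83 ± 0.35 higher in the hippocampus on the log2 scale (FDR = 0.0505). It was called when any 1 of 8 libraries was left out (FDR = 0.0267 to 0.0461): hippocampus Sham + VH replicate 2, hippocampus TBI + VH replicates 1 and 2, thalamus Sham + VH replicate 2, thalamus TBI + VH replicates 2 and 4, and hypothalamus TBI + VH replicates 1 and 2. Mmp2 was also called, at 0.53 against the thalamus and at -0.56 for thalamus against hypothalamus, without thalamus Sham + VH replicate 3 (FDR = 0.0319 and 0.0331).

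At 29 dpi the same 4 members were called between hippocampus and thalamus (38.9% of all genes) and between hippocampus and hypothalamus (45% of all genes), each in the same direction as at 3 dpi. Timp2 differed by -1.13 ± 0.13 and -1.24 ± 0.13, and Timp3 by -1.46 ± 0.10 and -0.76 ± 0.10. Adamts1 differed by 0.49 ± 0.15 and 1.11 ± 0.15. Between thalamus and hypothalamus 3 members were called (32.4% of all genes): Timp3 by 0.70 ± 0.10, Adamts1 by 0.62 ± 0.15 and Timp1 by -1.53 ± 0.46 (FDR = 0.00863). Timp1 in the hypothalamus read 0.740, 0.351, 0.375 and 0.390 CPM, and without replicate 1 of that group the difference was -1.17 (FDR = 0.0599). Mmp2 was -0.07 lower in hippocampus than hypothalamus and not called, yet without hippocampus Sham + VH replicate 1 the value was -0.49 (FDR = 0.0374). That library held the highest choroid plexus and fibroblast marker sums of its group (7788 and 559 CPM), while the others held 87.0 to 4467 and 191 to 341 CPM, and the part of these cells was not tested.

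In the hippocampus at 3 dpi, injury raised Timp1, Timp4 and Mmp19 in both arms of treatment. Of the 8 members tested, 3 were called in TBI + VH against Sham + VH, all higher, where 10.7% of all genes tested were called and 8.99% were called higher. The median log2 fold change of the members was 0.33, beside -0.01 for all genes. In TBI + CD against Sham + CD, 5 members were called, all higher, against 20.1% of all genes (14.4% higher), and the median was 0.50 beside -0.00. Mmp2 and Mmp14 were the members added in that comparison. These counts and medians are descriptions, since Timp1 passed the filter on low counts through the injured libraries alone. Since these are bulk samples, fewer cells of a type and less RNA per cell cannot be told apart.

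**Figure D2:**
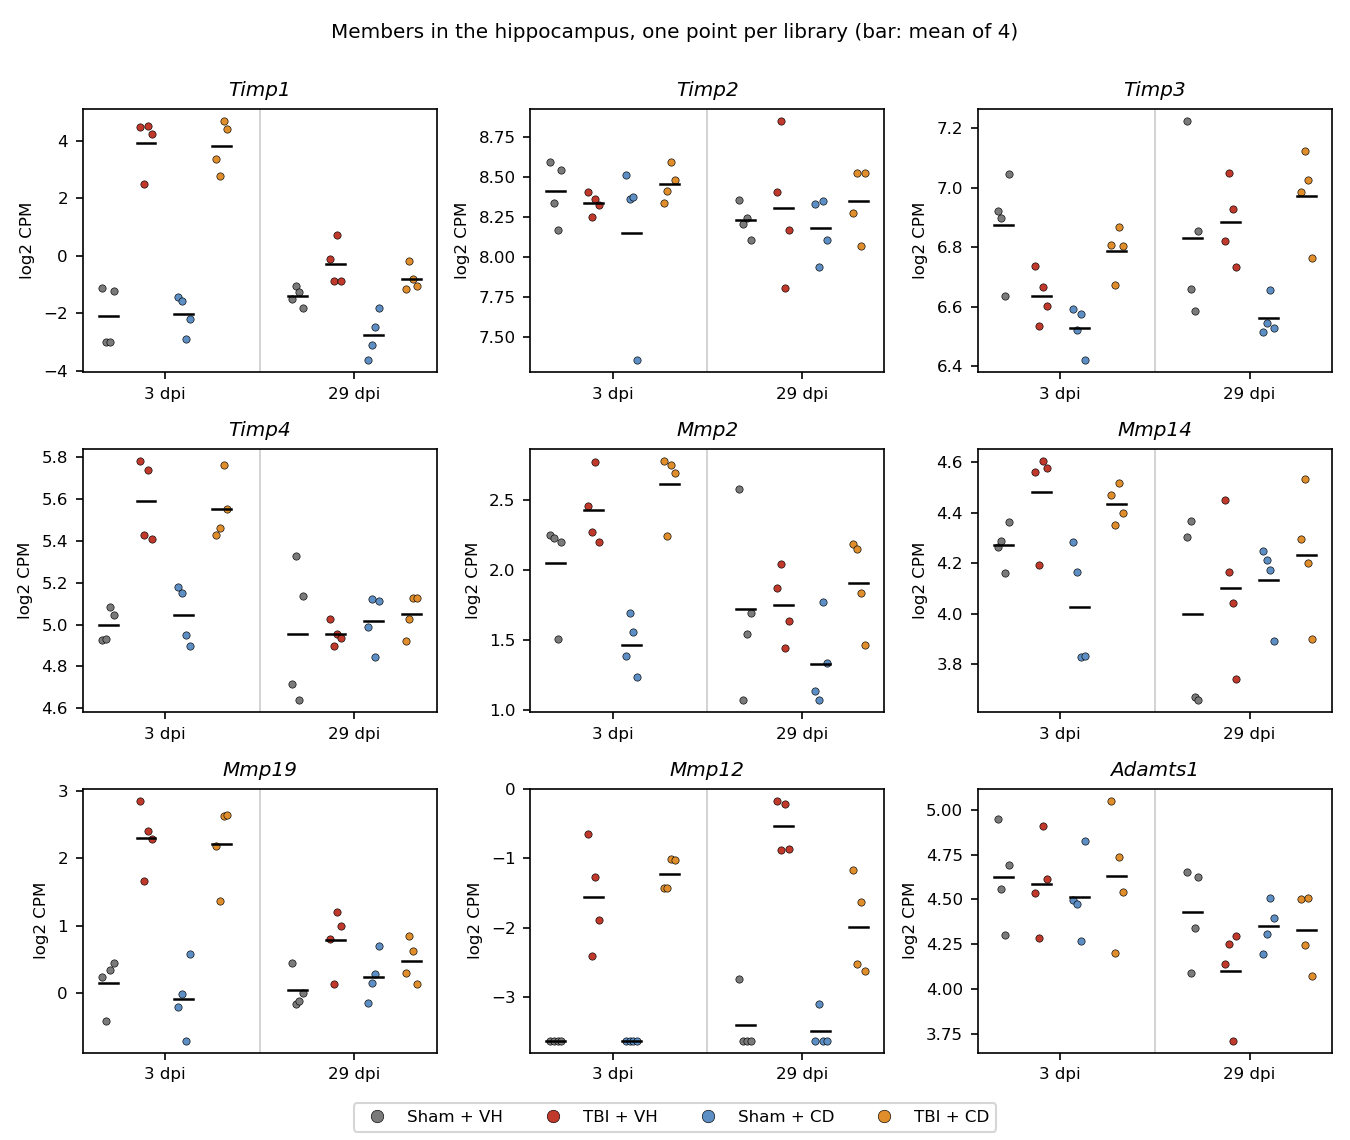
Level of 9 members in the hippocampus as log2 CPM (prior count 2) at 3 and 29 dpi; points are libraries and bars are means of 4 per group. Timp1, Mmp19 and Mmp12 separate injured from sham libraries at 3 dpi, whereas Timp2 and Adamts1 overlap.

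Timp1 showed the largest fitted change of the 8 members tested. The Sham + VH libraries read 0.380, 0.0444, 0.0438 and 0.348 CPM, and the TBI + VH libraries 22.1, 5.50, 22.8 and 18.4 CPM. Replicate 2 of TBI + VH was the lowest injured library, and it was still above every sham library. The rise was 82.4-fold, a log2 fold change of 6.37 ± 0.65 (FDR = 2.85e-06). With candesartan, the sham libraries read 0.293, 0.259, 0.0529 and 0.137 CPM and the injured ones 10.2, 6.78, 25.7 and 21.1 CPM. These groups did not overlap either, and the rise was 85.2-fold (log2 6.41 ± 0.68, FDR = 2.39e-06). The sham libraries held only 1 to 9 Timp1 counts each, so the size of the fold rests on few reads, while the injured libraries held 103 to 681. None of the 8 sham libraries reached the minimum of the filter and all 8 injured ones did, so both calls are given as descriptions. With no filter the values were 6.34 and 6.39 (FDR = 1.59e-07 in both). Of the summed TIMP level per kb, Timp1 rose from 0.0485% to 0.358% in Sham + VH to 6% to 19.5% in TBI + VH. Both calls held without each of the 16 libraries in turn. Syn1, whose intron holds Timp1, differed by -0.11 and -0.18 in these comparisons (FDR = 0.412 and 0.0871).

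Timp4 rose by a smaller amount and in every injured library. The Sham + VH libraries read 30.4, 30.5, 33.8 and 32.9 CPM, and the TBI + VH libraries 54.9, 43.0, 53.2 and 42.3 CPM. The groups did not overlap, and the rise was 1.55-fold (log2 0.64 ± 0.10, FDR = 0.000232). With the choroid plexus score as a covariate it was 0.43 (FDR = 0.093). With candesartan the sham libraries read 36.1, 35.4, 30.8 and 29.7 CPM and the injured ones 43.0, 44.0, 54.2 and 46.8 CPM. That rise was 1.47-fold (log2 0.56 ± 0.10, FDR = 0.000424), between groups that held little choroid plexus signal apart from TBI + CD replicate 1. Syn2, which holds Timp4, differed by -0.20 and -0.15 (FDR = 0.0656 and 0.109).

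Timp2 and Timp3, the abundant inhibitors, were not called after injury. Timp2 read 387, 324, 288 and 374 CPM in Sham + VH and 340, 305, 329 and 320 in TBI + VH, which overlap, for a log2 difference of -0.05 ± 0.17 (FDR = 0.892). In Sham + CD it read 366, 330, 333 and 164 CPM, with replicate 4 far below the other libraries, and in TBI + CD 325, 340, 387 and 358, for a difference of 0.29 ± 0.17 (FDR = 0.204).

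Timp3 took opposite signs in the treatment arms, and both differences were small. It read 121, 119, 99.3 and 132 CPM in Sham + VH and 107, 92.6, 101 and 97.1 in TBI + VH, a difference of -0.21 ± 0.08 (FDR = 0.0827). In Sham + CD it read 96.4, 91.8, 95.4 and 85.5 CPM and in TBI + CD 112, 102, 117 and 112, with no overlap. That difference, 0.31 ± 0.08, passed the FDR (0.0057) but not the fold threshold. When any 1 of TBI + VH replicates 1, 3 and 4, Sham + CD replicates 1 and 3 and TBI + CD replicate 2 was left out, it lay between 0.32 and 0.35 and passed both. Syn3, which shares exonic bases with Timp3 on the opposite strand, fell by 0.47 ± 0.11 in the same comparison (FDR = 0.00399) and differed by -0.09 in TBI + VH (FDR = 0.692).

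Of the proteases, Mmp19 rose most among those tested. The Sham + VH libraries read 1.10, 0.665, 1.18 and 1.28 CPM, and the TBI + VH libraries 7.15, 3.10, 5.23 and 4.80 CPM. Every injured library lay above every sham library, with TBI + VH replicate 2 again the lowest, and the rise was 4.9-fold (log2 2.29 ± 0.33, FDR = 9.62e-05). In Sham + CD Mmp19 read 0.781, 0.907, 0.529 and 1.41 CPM and in TBI + CD 4.47, 2.50, 6.14 and 6.19 CPM, a rise of 5.43-fold (log2 2.44 ± 0.34, FDR = 4.4e-05). Both calls, and those of Timp4, held without each library in turn. Tmem198b, which was looked at after its values were seen, rose 1.56-fold and 1.84-fold (FDR = 0.000377 and 1.05e-05). Its part in the Mmp19 count was not tested.

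Mmp2 and Mmp14 were called in the candesartan arm and not in the vehicle arm, and the test of the difference between the arms, given with the interaction, called neither. Mmp2 read 4.69, 4.61, 2.76 and 4.53 CPM in Sham + VH and 5.43, 4.75, 6.75 and 4.53 in TBI + VH, where the groups overlapped (0.41 ± 0.18, FDR = 0.173). In Sham + CD it read 2.54, 3.15, 2.86 and 2.28 CPM and in TBI + CD 6.80, 4.66, 6.67 and 6.39, with no overlap. That rise was 2.34-fold (log2 1.22 ± 0.19, FDR = 0.00012). Mmp14 read 19.2, 19.5, 17.8 and 20.5 CPM in Sham + VH and 23.5, 18.2, 24.3 and 23.8 in TBI + VH (0.26 ± 0.11, FDR = 0.134). Replicate 2 of TBI + VH lay among the sham libraries, and without it the value was 0.35 (FDR = 0.0193). In Sham + CD Mmp14 read 19.4, 17.8, 14.1 and 14.2 CPM and in TBI + CD 22.1, 20.4, 22.8 and 21.0, a rise of 1.36-fold (log2 0.44 ± 0.11, FDR = 0.00489).

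Mmp12 was not detected in sham libraries and was present in every injured one at 3 dpi, at counts too low to pass the filter for testing. The 8 sham libraries had 0 counts. The TBI + VH libraries had 13, 2, 9 and 5 counts, and the TBI + CD libraries 6, 7, 11 and 10. With the sham group set to a floor of 3 counts, the ratio of summed levels was 9.64 in TBI + VH and 10.02 in TBI + CD. These ratios carry no error for the injured counts or between mice, so they are not lower limits. When no filter was applied, edgeR called it in both arms (FDR = 0.00111 and 0.000459), and so did DESeq2 (FDR = 0.000247 and 8.2e-05). Mmp3 had at most 4 counts in any of these libraries. Adamts1, the ADAMTS member, overlapped between groups, with 19.7 to 30.7 CPM in Sham + VH and 19.4 to 30.0 in TBI + VH. Its differences were -0.00 ± 0.18 in the vehicle arm and 0.18 ± 0.18 in the candesartan arm (FDR = 0.998 and 0.473).

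Counted by libraries that do not overlap, 3 of the 8 members tested were higher in TBI + VH than in Sham + VH (Timp1, Timp4 and Mmp19), where 10.3% of all genes tested were. In TBI + CD against Sham + CD there were 6, all but Timp2 and Adamts1, where 15.3% of all genes tested were. These shares cover tested genes, so the untested members have no share beside them. Of those, Mmp12 did not overlap in either arm, at the low counts given above. Mmp3 held 1, 1, 4 and 1 counts in TBI + CD against 0 in Sham + CD. In the vehicle arm it held 2, 0, 1 and 0 counts in TBI + VH against 0, 0, 0 and 1 in Sham + VH. Such counts are too few to be read as a difference.

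The study set TBI + CD against Sham + VH, which shares its control libraries with the vehicle comparison. Here 4 members were called, with 12.1% of all genes (10.3% higher): Timp1 by 6.25 ± 0.65, Timp4 by 0.60 ± 0.10, Mmp19 by 2.22 ± 0.33 and Mmp2 by 0.60 ± 0.18 (FDR = 2.99e-06, 0.000369, 0.000115 and 0.0314). The call of Mmp2 was lost without Sham + VH replicate 3 (0.45, FDR = 0.0876) and without TBI + CD replicate 1 (0.55, 0.0714), 3 (0.56, 0.0832) or 4 (0.58, 0.0681). It was also lost when only the libraries compared were fitted (0.61, FDR = 0.0585).

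Between injured mice, candesartan was not seen to change any of the members. In TBI + CD against TBI + VH, edgeR called 0 of 8 members and 0 of 16756 genes (0%). Of these, 0 members and 732 genes had p under 0.05 before adjustment. DESeq2 also called 0 members and 0 genes. The Timp1 difference was -0.11 (95% interval -0.94 to 0.72) and that of Mmp19 was -0.07 (-0.68 to 0.54). For Timp4 it was -0.04 (-0.25 to 0.17), for Mmp14 -0.06 (-0.29 to 0.16) and for Mmp2 0.19 (-0.19 to 0.57). For Timp2, Timp3 and Adamts1 the differences were 0.13 (-0.23 to 0.48), 0.15 (-0.01 to 0.32) and 0.05 (-0.32 to 0.42).

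**Figure D3:**
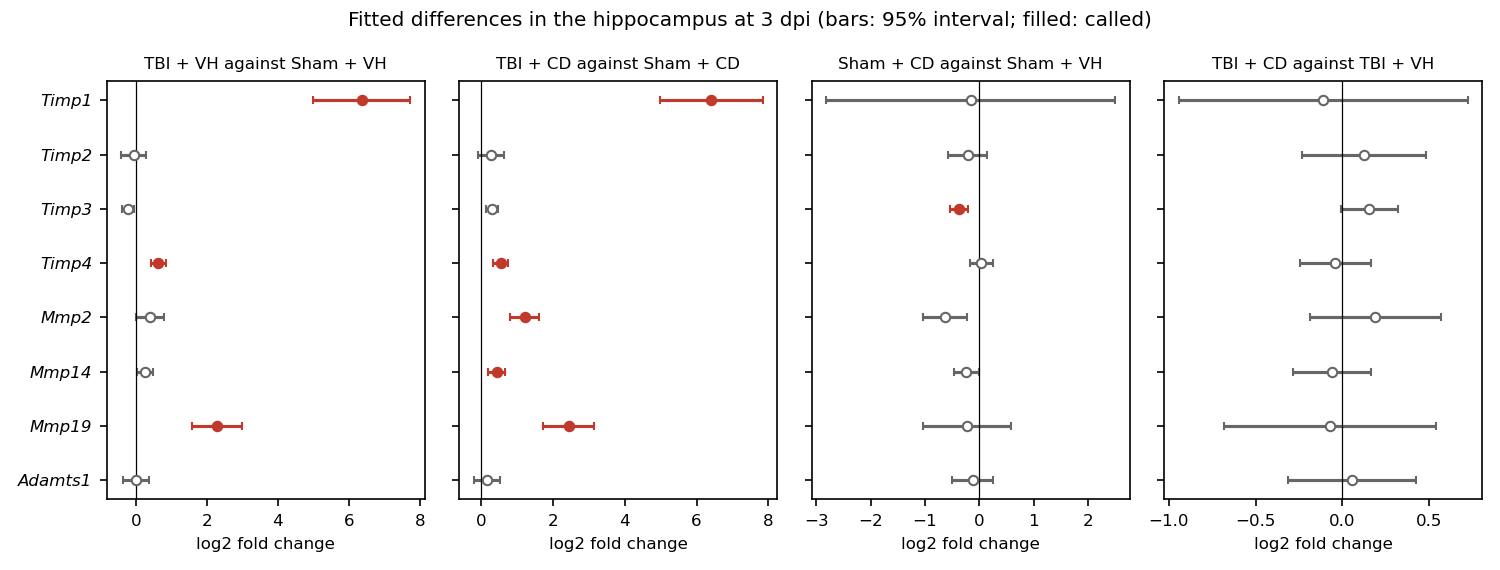
Fitted log2 fold changes of the 8 tested members in the hippocampus at 3 dpi for 4 comparisons, each on its own axis; bars are 95% intervals and filled points are called. Timp1 and Mmp19 lie far right of 0 after injury in both arms, and in TBI + CD against TBI + VH all intervals include 0.

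Between sham mice, 1 member was called for candesartan, Timp3, where 1.5% of all genes were called and 1.41% were called lower. Timp3 was lower in Sham + CD than in Sham + VH by a log2 fold change of -0.37 ± 0.08 (95% interval -0.53 to -0.20, FDR = 0.0286). The groups did not overlap, as for 4.18% of all genes. The call was lost when any 1 of 7 of the 8 libraries compared was left out: Sham + VH replicates 1 (-0.35, FDR = 0.0954), 2 (-0.37, 0.0769) and 4 (-0.30, 0.118) and Sham + CD replicates 1 (-0.39, 0.0573), 2 (-0.36, 0.0925), 3 (-0.38, 0.0722) and 4 (-0.33, 0.117). The choroid plexus score also differed between these groups, and with it as a covariate the value was -0.26 (FDR = 0.691). Mmp2 differed by -0.63 ± 0.19 (FDR = 0.114), and without Sham + VH replicate 3, its lowest library in that group, by -0.79 (FDR = 0.0163). That library was also the 1 of its group with little choroid plexus signal (216 CPM), and its summed fibroblast markers were the lowest of the group (194 CPM, against 360 to 501). In Sham + CD the fibroblast markers summed to 151 to 248 CPM. The part of these cells in the Mmp2 values was not tested.

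The test of whether injury acted differently in the 2 drug arms called 0 of 8 members and 0% of all genes in edgeR, and 2 members had p under 0.05 before adjustment. DESeq2 called 1 member and 322 genes. Timp3 had an interaction of 0.52 ± 0.11 (95% interval 0.29 to 0.75, FDR = 0.0622) and Mmp2 one of 0.82 ± 0.26 (0.26 to 1.37, FDR = 0.186). That of Mmp14 was 0.18 ± 0.15 (-0.14 to 0.50, FDR = 0.666). Timp3 was called with DESeq2 (FDR = 0.00214) and without Sham + VH replicate 3 (0.60, FDR = 0.0021) or TBI + CD replicate 2 (0.56, FDR = 0.0326). Mmp2 was called without Sham + VH replicate 3 (0.98, FDR = 0.0328). For both genes, leaving out that library leaves a Sham + VH group of the 3 libraries with high choroid plexus signal. For Timp1 and Mmp19 the interactions were 0.05 ± 1.24 and 0.15 ± 0.48.

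The summed macrophage markers were also higher after injury in the hippocampus at 3 dpi. The summed level of 6 markers of infiltrating macrophages (Ms4a7, Ccr2, Chil3, Cd5l, Fcna and Lyz2) was 6.66 to 11.0 CPM in Sham + VH and 33.6 to 141 in TBI + VH. With candesartan it was 4.499 to 7.51 CPM in sham mice and 60.02 to 150 in injured mice. Lyz2 made up most of the sum, with 6.22 to 10.1 CPM in Sham + VH and 31.2 to 131 in TBI + VH, while Ms4a7, Ccr2, Chil3 and Fcna reached at most 3.08, 1.51, 0.689 and 0.641 CPM in TBI + VH. Cd5l was at 0 in all 8 sham libraries and at 0.641 to 7.23 CPM in TBI + VH. The test called 4 of the 6 markers higher in the vehicle arm and 5 in the candesartan arm, a description only, since Cd5l, Ccr2 and Fcna passed the filter through injured libraries alone. The shares of all genes called higher in these comparisons are given with the members above. Ms4a7 and Chil3 overlapped between the vehicle groups. They reached 0.581 and 0.169 CPM in Sham + VH and were as low as 0.321 and 0.0534 in TBI + VH. The summed microglial markers were 214 to 234 CPM in Sham + VH and 381 to 549 in TBI + VH, and the astrocyte markers 4007 to 4879 and 7525 to 9557. TBI + VH replicate 2, the lowest library of its group in Timp1, Mmp19 and Mmp14, was also the lowest of that group in the summed macrophage, microglial and astrocyte markers. The part of these cells in the results for the members was not tested.

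**Figure D4:**
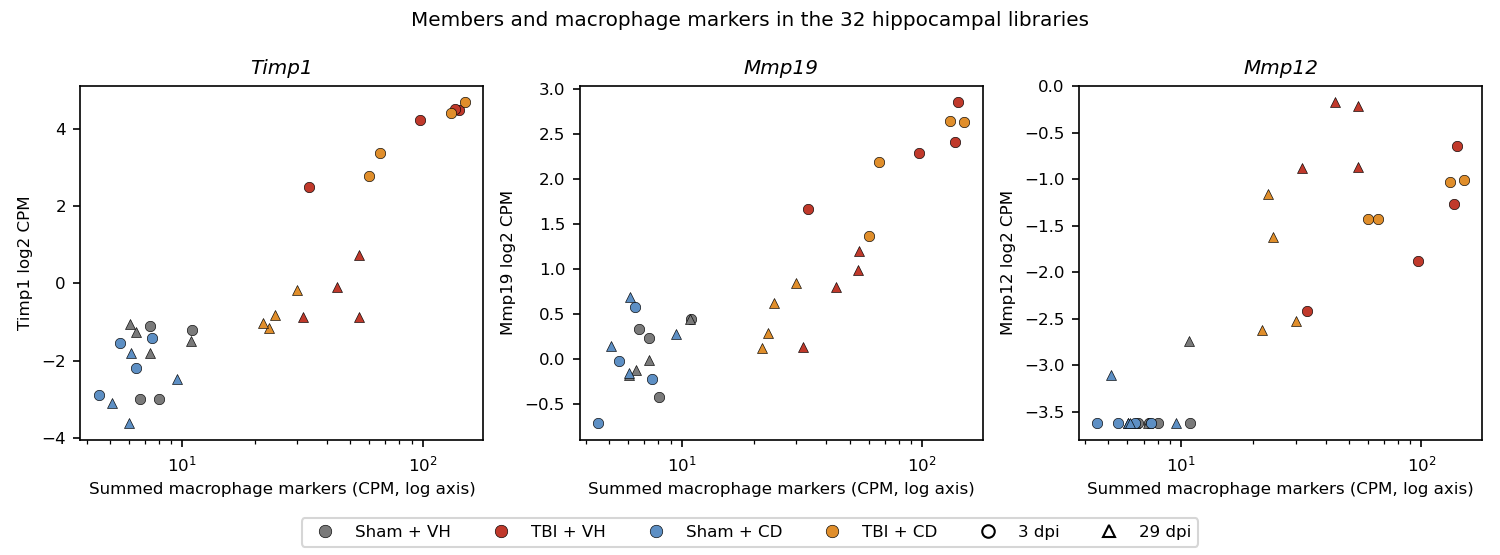
Log2 CPM of Timp1, Mmp19 and Mmp12 against the summed macrophage markers (CPM, log axis) in the 32 hippocampal libraries; colour is the group, circles are 3 dpi and triangles 29 dpi. Injured libraries lie to the right of sham libraries in each panel, and for Timp1 the 3 dpi injured libraries lie above the 29 dpi ones.

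At 29 dpi in the hippocampus, Mmp12 was the 1 member of 9 tested that was called in TBI + VH against Sham + VH, where 0.529% of all genes were called. It passed the filter on low counts through the injured libraries alone and failed it when only these 8 libraries were fitted, so the call is given as a description. Mmp12 had 18, 5, 11 and 15 counts in TBI + VH and 2, 0, 0 and 0 in Sham + VH, with no overlap in CPM. The ratio of the summed levels was 25.3 (95% exact interval 6.65 to 215, counting error only), and the fitted value was 4.41 ± 0.74 (FDR = 0.00582). Without the 4 libraries under 12000000 counts, a setting chosen after the totals were seen, it was 4.23 (FDR = 0.0887). In TBI + CD it had 8, 3, 7 and 2 counts against 0, 1, 0 and 0 in Sham + CD, a ratio of 16.6 (2.66 to 690) that edgeR did not call (FDR = 0.135).

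The TBI + CD libraries at 29 dpi read 0.366, 0.0934, 0.244 and 0.081 CPM for Mmp12 and the TBI + VH libraries 0.808, 0.461, 0.784 and 0.468. All TBI + CD libraries lay below all TBI + VH libraries, a pattern found for 1.51% of all genes tested. Mmp12 passed the filter on low counts through the TBI + VH libraries alone, so this comparison is given as a description. The difference was -1.71 ± 0.48 (95% interval -2.73 to -0.69, unadjusted p = 0.00252), but the FDR over all genes was 0.882. Mmp12 was the 1 member with p under 0.05 before adjustment, and edgeR and DESeq2 called 0 of 9 members (edgeR: 0% of all genes). The macrophage marker sum was 31.9 to 54.6 CPM in TBI + VH and 21.7 to 30.01 in TBI + CD at this time, and its part was not tested.

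Timp1 was not called by edgeR at 29 dpi, although its injured libraries lay above the sham libraries in both arms. It read 0.277, 0.403, 0.336 and 0.204 CPM in Sham + VH and 0.853, 0.461, 1.57 and 0.468 in TBI + VH. The groups did not overlap, as for 2.44% of all genes, and the difference was 1.41 ± 0.47 (FDR = 0.343). With candesartan it read 0, 0.0354, 0.0974 and 0.207 CPM in sham and 0.366, 0.809, 0.488 and 0.405 in injured mice (2.35 ± 0.56, FDR = 0.087), again with no overlap, as for 4.29% of all genes. In that comparison edgeR called 0 of 9 members and 0.356% of all genes, and 4 members had p under 0.05 before adjustment. DESeq2 called 2, Timp1 (2.40) and Timp3 (0.43), both at an FDR of 0.0421. Summed fibroblast markers were 408, 524, 301 and 273 CPM in TBI + CD against 223, 168, 302 and 210 in Sham + CD. Choroid plexus markers were 3804, 2465, 598 and 224 CPM against 139, 72.6, 4223 and 194. With the choroid plexus score as a covariate, edgeR gave Timp1 2.53 (FDR = 0.0695) and Timp3 0.32 (FDR = 0.149), and the part of the fibroblasts was not tested. edgeR called Timp1 without TBI + VH replicate 3 (FDR = 0.0479), and Timp3 without Sham + VH replicate 1 (0.43, FDR = 0.0292).

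The other members were not called at 29 dpi in the hippocampus. Mmp19 read 1.28, 0.807, 0.840 and 0.917 CPM in Sham + VH and 1.66, 1.01, 2.21 and 1.90 in TBI + VH, which overlap (0.80 ± 0.26, FDR = 0.323). Timp4 read 24.8 to 40.1 CPM in Sham + VH and 29.8 to 32.5 in TBI + VH, a difference of 0.01. Mmp2 read 2.02 to 5.91 and 2.64 to 4.06 CPM (-0.14), and Adamts1 16.9 to 25.1 and 13.1 to 19.6 CPM (-0.33 ± 0.14, FDR = 0.546). In TBI + CD against Sham + VH (0.119% of all genes) edgeR and DESeq2 called 0 of 9 members, and 1 had p under 0.05 before adjustment. The same held for Sham + CD against Sham + VH, with 2 such members, and for the interaction, with 1, and edgeR called 0% of all genes in both.

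The change after injury in vehicle mice was tested between the times. Timp1 differed by 4.98 ± 0.99 (95% interval 2.89 to 7.06, FDR = 0.0124) and was the 1 member called, where 2.21% of all genes were. Timp1 passed the filter on low counts through the injured libraries alone, so the call is given as a description. This call was lost without the 29 dpi Sham + VH replicate 3 (4.87, FDR = 0.0836). Mmp19 differed by 1.49 ± 0.41 (FDR = 0.0704) and Timp4 by 0.63 ± 0.18 (FDR = 0.0906). Mmp19 passed without the 3 dpi TBI + VH replicate 2 (1.66, FDR = 0.0124). Timp4 passed without that library (0.68, FDR = 0.0466) or without the 29 dpi Sham + VH replicate 3 (0.72, FDR = 0.0377). Mmp12 differed by 1.38 ± 1.16 (FDR = 0.816), a value of no firm size, since the 3 dpi Sham + VH libraries held 0 counts.

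In the thalamus and hypothalamus no member was called in any of 24 comparisons between groups. Over 180 tests of a member, 11 had p under 0.05 before adjustment, where 9 would be 5%, and the lowest FDR by edgeR was 0.294. That was Adamts1 in the thalamus at 3 dpi, which read 9.98, 9.37, 10.5 and 9.22 CPM in TBI + CD and 14.5, 13.4, 11.8 and 13.2 in Sham + CD (-0.43 ± 0.12, unadjusted p = 0.00293). Those groups did not overlap, as for 2.54% of all genes tested. DESeq2 called 0 as well. Of all genes, edgeR called 0.298%, 0.179% and 0.418% in the thalamus at 3 dpi in TBI + VH, TBI + CD against Sham + CD and TBI + CD against Sham + VH, 0.00583% in the hypothalamus at 29 dpi in TBI + VH, and 0% in the other 20 comparisons. In TBI + VH against Sham + VH of the thalamus at 3 dpi, Timp1 read 0.281, 0.674, 0.184 and 0.212 CPM against 0.207, 0.152, 0.309 and 0.0393. Mmp19 read 0.888, 1.63, 0.885 and 0.594 CPM against 0.621, 0.759, 0.662 and 0.354 (0.74 ± 0.32, unadjusted p = 0.035). Both genes overlapped between the groups. In the hypothalamus at 3 dpi (0% of all genes), Timp3 read 211, 215, 195 and 190 CPM in TBI + VH and 162, 170, 181 and 185 in Sham + VH. These did not overlap, as for 0.891% of all genes, and the difference was 0.23 ± 0.07 (unadjusted p = 0.0044), but it was not called. At 29 dpi Timp1, too low in the thalamus to be tested, read 0.295, 0.264, 0.423 and 0.484 CPM in TBI + CD and 0.0828, 0.0783, 0.251 and 0.0741 in Sham + CD. The TBI + CD libraries overlapped with neither sham group, as for 1.96% of genes tested against Sham + CD and 1.18% against Sham + VH. The summed macrophage markers there were 9.40, 8.96, 13.0 and 44.0 CPM in TBI + CD. In Sham + CD they were 5.34 to 8.12 CPM and in Sham + VH 5.15 to 8.96, and their part was not tested.

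**Figure D5:**
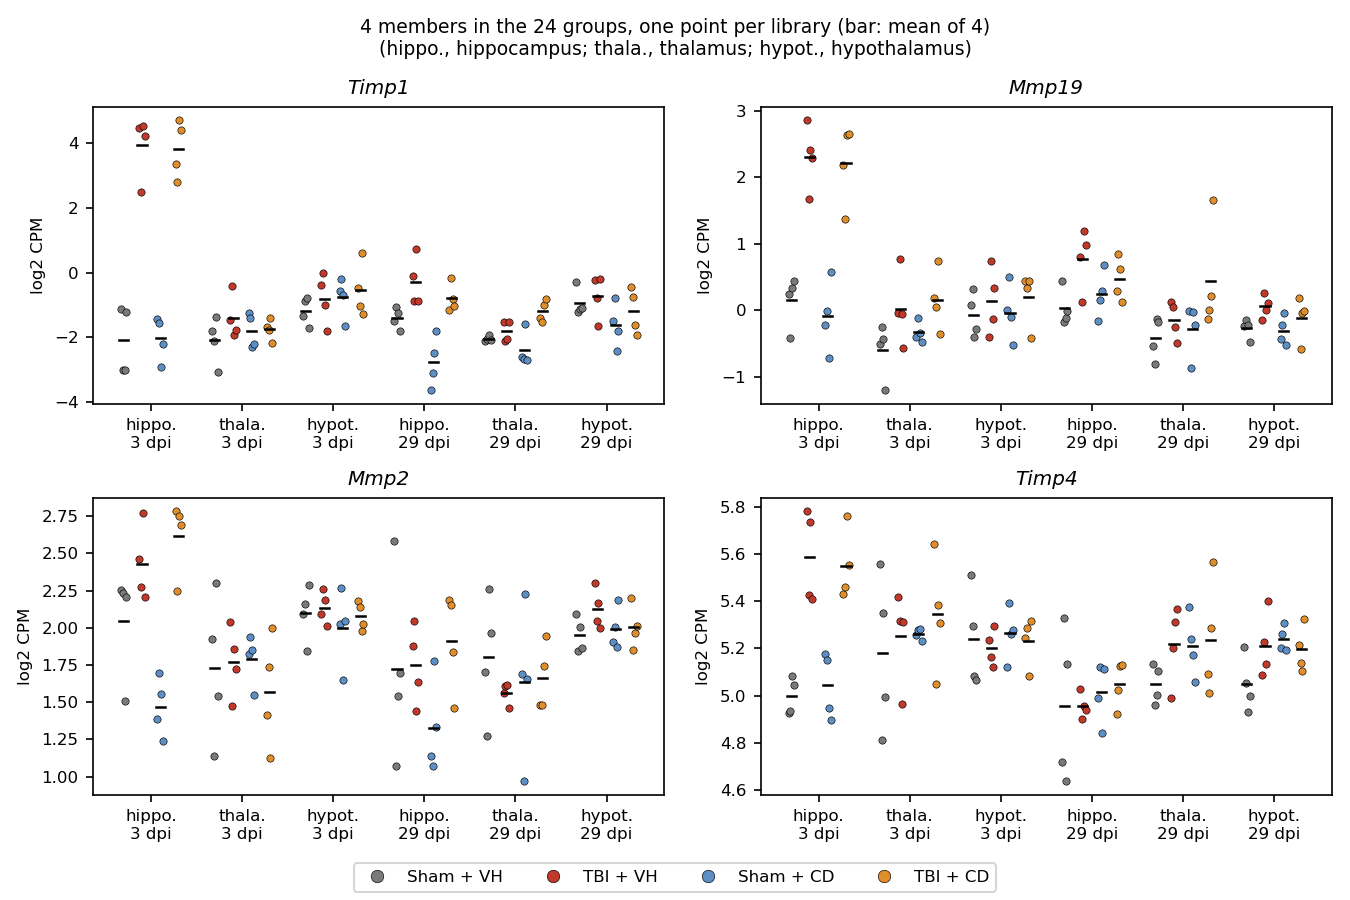
Log2 CPM (prior count 2) of Timp1, Mmp19, Mmp2 and Timp4 in the 24 groups of region and time; points are libraries and bars are means of 4. The injured hippocampal libraries at 3 dpi lie above all other libraries for Timp1, and Mmp19 in 1 thalamic TBI + CD library at 29 dpi stands apart from its group.

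The response to injury in the hippocampus at 3 dpi was set against that of the other regions in vehicle mice. Against the thalamus 1 member was called, Timp1, with a difference of 5.37 ± 1.08 (FDR = 0.00496), where 2.98% of all genes were called. Within the thalamus alone Timp1 was too low to be tested. Mmp19 differed by 1.51 ± 0.47 (FDR = 0.0947) and was called without hippocampus TBI + VH replicate 2 (1.67, FDR = 0.0328) or thalamus TBI + VH replicate 2 (1.85, FDR = 0.0284). Timp4 differed by 0.54 ± 0.18 (FDR = 0.152) and was called without thalamus Sham + VH replicate 2 (0.64, FDR = 0.0449).

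Against the hypothalamus 4 members were called, with 4.83% of all genes. Timp1 differed by 5.77 ± 0.83 (FDR = 8.73e-05) and Mmp19 by 1.98 ± 0.45 (FDR = 0.00796). Timp4 differed by 0.63 ± 0.18 (FDR = 0.0461) and Timp3 by -0.47 ± 0.13 (FDR = 0.0357). The Timp4 call was lost when any 1 of 13 of the 24 libraries was left out (0.54 to 0.67, FDR = 0.0512 to 0.117): hippocampus Sham + VH replicates 1, 2 and 4 and TBI + VH replicates 1 and 3, thalamus TBI + VH replicates 2 and 4, and hypothalamus Sham + VH replicates 1 and 2 and TBI + VH replicates 1, 2, 3 and 4. The Timp3 call was lost when any 1 of 10 was left out (-0.48 to -0.40, FDR = 0.0626 to 0.106): hippocampus Sham + VH replicates 1, 2 and 4 and TBI + VH replicates 2, 3 and 4, and hypothalamus Sham + VH replicates 1 and 2 and TBI + VH replicates 1 and 2.

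The lists around these genes describe the rest of the pathway in the hippocampus at 3 dpi. These lists, here and below, were chosen with earlier results of these data known. Their counts and medians are therefore descriptions. No values with the choroid plexus score are given for list genes. Of 11 activators and other inhibitors of these proteases, 10 were tested. In TBI + VH against Sham + VH, 5 were called higher and 0 lower, with a median log2 fold change of 0.29, and in TBI + CD against Sham + CD 5 and 0 with 0.39. Of all genes tested, 8.99% and 14.4% were called higher in these comparisons. Lcn2, lipocalin-2, which binds Mmp9, averaged 0.448 ± 0.303 CPM in Sham + VH and 27.2 ± 11.7 in TBI + VH (log2 5.97, FDR = 3.48e-06). A2m, alpha-2-macroglobulin, an inhibitor of many proteases with close paralogs, changed by 2.59 in the vehicle arm (FDR = 1.49e-05) and by 4.49 in the candesartan arm (FDR = 1.87e-07). Between sham mice A2m differed by -1.98 in Sham + CD (FDR = 0.0233), where the choroid plexus signal also differed. Plaur, the urokinase receptor, changed by 2.30 ± 0.53 (FDR = 0.00575), at a mean of only 0.378 CPM over all 96 libraries.

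Of 18 substrates in the matrix or on the cell surface, all tested, 5 were called higher and 0 lower in TBI + VH and 8 and 0 in TBI + CD against Sham + CD, with medians of 0.27 and 0.50, beside the same 8.99% and 14.4% of all genes called higher. Spp1, osteopontin, changed by 3.98 (FDR = 0.00143) and Cd44, the hyaluronan receptor, by 2.73 (FDR = 5.22e-05). Vcan, versican, a proteoglycan cut by Adamts1, changed by 0.68 (FDR = 0.00129). At 29 dpi, 2 substrates were called higher in TBI + VH and 4 in TBI + CD against Sham + CD, where 0.529% and 0.356% of all genes were called.

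The other protease families are read beside the 10.7% and 20.1% of all genes called in TBI + VH against Sham + VH and in TBI + CD against Sham + CD. Of 18 other MMPs 8 were tested, and 0 were called in TBI + VH against Sham + VH, with a median of -0.08. Mmp17, the most abundant of them, averaged 305 ± 20.7 CPM in Sham + VH and 268 ± 25.2 in TBI + VH. In TBI + CD against Sham + CD, 1 was higher and 1 lower, the latter Mmp16 at -0.40 (FDR = 0.0125). Of 18 other ADAMTS proteases 16 were tested, with 0 called in TBI + VH and 1 lower in TBI + CD. Of 11 genes of the ADAM family 10 were tested, and Adam17, which sheds tumor necrosis factor from the cell surface, was the 1 called in TBI + VH (0.51 ± 0.10, FDR = 0.0025). In TBI + CD against Sham + CD, 2 genes of the ADAM family were called higher, Adam17 among them (0.65, FDR = 0.000181), and 1 lower, Adam22 (-0.36, FDR = 4.2e-05), the most abundant of the list.

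The genes whose levels varied most like each member were sought over the 96 libraries after removal of group means, as a description. For Timp1 they were Col3a1, Lyz2 and Ecm1 (Pearson r = 0.578, 0.573 and 0.568), and for Mmp19 they were Lyz2, Cd9 and Fcgr3 (0.717, 0.633 and 0.626). For Timp4 they were Acsbg1, Mmd2 and S100b (0.846, 0.845 and 0.830), and for Mmp14 Cldn5, AK158015 and Eng (0.787, 0.717 and 0.711). For Mmp2 they were Slc31a1, Nid2 and Trpv4 (0.734, 0.729 and 0.728), and for Timp2 Slc7a3, Cpne2 and Tacr3 (0.831, 0.820 and 0.813). For Timp3 they were Sntb1, Arhgef5 and Maob (0.682, 0.676 and 0.657), and for Adamts1 Tbc1d8b, Lamp2 and Aox1 (0.618, 0.613 and 0.593). Between members the highest value was that of Timp1 with Mmp19 (0.519). The points share libraries, depth and dissection, so these values do not separate a common source from a common change.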

How the data were processed

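The authors aligned paired-end reads of stranded mRNA libraries to mm10 with MapSplice and, per the labels, counted them with HTSeq 0.9.1. The deposited tables hold raw counts per gene symbol without normalization. The annotation and strand setting are not given in the sources used here. All 96 columns were mapped to libraries by their names, 0 were left without one, and 63 symbols listed more than once did not include a member.

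Members and lists were chosen with earlier results of these data known. Some genes of these lists are not reported here and were left out of them. All members, list members by abundance and by change, host genes and most similar genes are named by rule. Tests were fitted on whole tables with edgeR 4.0.16 (R 4.3.3): filterByExpr, TMM, and a 2-sided quasi-likelihood test with Benjamini-Hochberg adjustment over all genes tested, in 45 comparisons. Within each region and time point the fit held 16 libraries of 4 groups. Comparisons between regions used the vehicle libraries of 1 time point and those between times the vehicle hippocampal libraries. SE is the log2 fold change divided by the root of F. Levels per length use GENCODE vM21 exons. The methods describe 4 RNA samples per group from dissected brains, and p-values measure the spread between these samples.

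On simulated counts of the hippocampal vehicle comparison at 3 dpi over 16606 genes, edgeR found 61.2%, 86.6% and 97.0% of genes changed by 0.5, 1 and 2 on the log2 scale, with 7 false calls. Alternatives were DESeq2 1.42.0, RLE factors, no filter, FDR alone, only the libraries compared, a replicate block, the choroid plexus score and each library left out.

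Replicate numbers were not taken to pair the libraries. Not every pair of same-numbered libraries correlated above 0.1 in its deviations, which does not exclude a pairing. Same-numbered libraries had the higher mean correlation in every check. Between groups of 1 region and time point the mean correlation was 0.0085 (thalamus, 29 dpi) to 0.166 (hypothalamus, 29 dpi), with single pairs from -0.65. Between regions of 1 group the mean for the same number was 0.064 at 3 dpi and 0.111 at 29 dpi, against -0.021 and -0.037 for other numbers, with single pairs from -0.34. Pairs of libraries of 1 group differed by more than sampling noise in all 144 pairs (chi-square per degree of freedom from 2.64).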

Additional observations from a re-analysis of the deposited data

Results flagged for a closer look

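A library far from the other 3 of its group was seen in 17 of 188 groups of a member's values, where chance alone gives about 1 in 20. In the hippocampus at 3 dpi, TBI + VH replicate 2 was low in Timp1 (5.50 CPM against 18.4 to 22.8) and in Mmp14 (18.2 against 23.5 to 24.3). In the same region and time, Timp2 was low in Sham + CD replicate 4 (164 against 330 to 366 CPM). Mmp2 was low in Sham + VH replicate 3 (2.76 against 4.53 to 4.69) and in TBI + CD replicate 2 (4.66 against 6.39 to 6.80). At 29 dpi, Mmp12 was above 0 in 1 library of each sham group, Sham + VH replicate 1 (0.0692 CPM) and Sham + CD replicate 2 (0.0354 CPM).

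In the thalamus at 3 dpi, Timp2 was high in Sham + VH replicate 1 (724 CPM against 669 to 674) and in Sham + CD replicate 4 (668 against 619 to 626), and Timp3 was low in TBI + CD replicate 1 (247 against 318 to 331). At 29 dpi Timp2 was low in thalamic TBI + CD replicate 4 (470 against 669 to 709 CPM).

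In the hypothalamus at 3 dpi, TBI + VH replicate 2 was high in Mmp14 (27.3 CPM against 22.3 to 22.9) and in Adamts1 (11.7 against 8.30 to 8.50), and TBI + CD replicate 4 was low in Mmp19 (0.665 against 1.18 to 1.27). At 29 dpi, Timp1 was high in Sham + VH replicate 1 (0.740 against 0.351 to 0.390 CPM), Timp2 was low in Sham + CD replicate 3 (609 against 731 to 753), and Timp3 was low in TBI + CD replicate 1 (186 against 202 to 204).

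Differences in the response to injury between regions or times passed edgeR's test for 6 values. Hippocampus against thalamus gave 5.37 for Timp1. Hippocampus against hypothalamus gave 5.77 for Timp1, 1.98 for Mmp19, 0.63 for Timp4 and -0.47 for Timp3. The time points differed by 4.98 for Timp1, a description, since this gene passed the filter there through the injured libraries alone. The standard errors, the FDR and the libraries without which a call was lost are given with each comparison above.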

How the results depend on the processing

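The number of members called stayed within 1.5 times its first value in 262 of 273 combinations of comparison and alternative. In the hippocampus at 3 dpi, the interaction of injury and candesartan went from 0 members to 1 with DESeq2, with no filter on low counts and with the replicate block (Timp3, FDR = 0.00214, 0.0269 and 0.0464), and Sham + CD against Sham + VH went from 1 to 0 with the choroid plexus score. At 29 dpi, TBI + CD against Sham + CD went from 0 to 2 with DESeq2 and to 1 with only the libraries compared, and TBI + VH against Sham + VH went from 1 to 0 with only the libraries compared, where Mmp12 failed the filter, and to 0 without the libraries under 12000000 counts. The thalamus against the hypothalamus at 3 dpi went from 1 to 2 with DESeq2. The injury effect at 3 against 29 dpi went from 1 to 3 with DESeq2 (Mmp19 and Timp4 added) and to 2 with the replicate block (Mmp19 added). With 1 library left out, the number of members ranged from 0 to 2 for Sham + CD against Sham + VH and for the interaction at 3 dpi, 0 to 1 for TBI + CD against Sham + CD at 29 dpi, 1 to 2 for thalamus against hypothalamus at 3 dpi, 1 to 2 and 2 to 4 for injury in the hippocampus against thalamus and hypothalamus, and 1 to 3 for time. Mmp2 in hippocampus against hypothalamus at 29 dpi (-0.07, not called) ranged from -0.49 to 0.074 with 1 library left out, with a positive sign without hippocampus Sham + VH replicates 2 (0.074) and 3 (0.039).

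The replicate block gave Timp3 -0.47 (FDR = 0.0529) for injury in the hippocampus against the hypothalamus, a call lost. Because the numbers were not taken to pair the libraries, values under the block are given here alone. The number of all genes called moved by over 1.5 times in 37 of 273 combinations. For the interaction in the hippocampus at 3 dpi it was 0 with edgeR, 322 with DESeq2, 118 with no filter and 106 with the block. With the choroid plexus score it fell from 1796 to 594 in TBI + VH against Sham + VH, from 2030 to 1210 in TBI + CD against Sham + VH and from 251 to 0 in Sham + CD. With DESeq2 it rose from 251 to 448 in Sham + CD, and at 29 dpi from 89 to 140 in TBI + VH and from 60 to 172 in TBI + CD against Sham + CD. With the FDR alone TBI + CD against Sham + CD at 3 dpi rose from 3360 to 5570. The causes were not tested. Timp1, Mmp12 and Mmp3 in sham libraries rest on few reads, which limits their folds.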

Other observations

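In the thalamus at 29 dpi, TBI + CD replicate 4 stood apart in Mmp19 and in the macrophage markers, though the other libraries of its group did not. Mmp19 read 0.837, 0.926, 1.08 and 3.06 CPM in that group. The summed macrophage markers were 9.40, 8.96, 13.0 and 44.0 CPM. The Mmp19 difference from Sham + CD was 0.88 ± 0.38 on the log2 scale (edgeR, unadjusted p = 0.0327, FDR = 0.503), and without this library it was 0.27 ± 0.26 (FDR = 0.801).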
